A study of Mustela putorius furo with 10 samples.

Results

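The genes described here are those that give B lymphocytes their identity and carry the signal of the B cell receptor, measured in peripheral blood mononuclear cells (PBMC, the lymphocytes and monocytes of blood) of ferrets (Mustela putorius furo). A list of 48 symbols was matched to the array through the RefSeq ferret gene name of each target accession, and a gene was used where its probes were well above background in the ferret's own channel on at least 4 of 10 arrays. The symbols of 32 genes were found in this way and 30 of them were measured, out of 26303 genes and unnamed targets tested in all. The arrays came from 6 control ferrets acclimatised to 22 °C and 4 ferrets kept at 4 °C for 1 week, all males 3 months old, with 1 ferret on each array and no genotype or drug that differed between them. The labels state individual housing for the cold group alone, so that housing and temperature cannot be told apart. Each ferret's RNA carried the dye Cy3 and was hybridised together with a Cy5-labelled reference pool of PBMC and other tissues, which was the same on every array.

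A B cell recognises antigen through a membrane immunoglobulin that has no signalling tail of its own and relies on the paired chains CD79A and CD79B. When antigen binds, kinases of the SRC family such as LYN and BLK phosphorylate these chains, SYK and BTK are recruited, and the adaptor BLNK links them to calcium release and to the NF-kB and MAP kinase routes. Coreceptors such as CD22 and CD72 dampen the signal. In the mature cell PAX5 and EBF1 maintain the B cell programme, while PRDM1, IRF4 and XBP1 turn it towards the antibody-secreting plasma cell.

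Of the 48 symbols, 16 were not matched through their accessions and were not analysed here, namely MS4A1, CR2, CD24, FCER2, SYK, PLCG2, PIK3AP1, DAPP1, STAP1, TCL1A, BACH2, IRF8, CIITA, TNFRSF13B, TNFRSF17 and XBP1. The transcription factors PAX5 and SPIB were matched, but none of the 4 probes of either gene passed the filter. One or more PAX5 probes were above background on 2 of 10 arrays. The other 30 genes rested on 223 probes, of which 215 were well above background on every array and none through 1 group alone. FCRLA was the gene closest to the limit, since 1 of its 8 probes passed, on 3 control arrays and 1 cold array, while the other probes reached 2 or 3 arrays. Among the markers that define B cells, CD79A, CD79B and CD22 were therefore well measured on all 10 arrays, PAX5 did not pass the filter and MS4A1 was not analysed. Of the 30 genes, 14 were classed here as largely restricted to B cells among blood cells (B-restricted), and 16 as also used by other blood cells.

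Values are given on 2 scales. The log2 ratio of Cy3 to Cy5, loess-normalised within each array, compares a ferret with the reference pool, and the log2 Cy3 signal, quantile-normalised between arrays, leaves the pool out. The precision of both was limited by the number of arrays. The share of spots with a Cy3 signal well above background was 50.4 to 63.5% per array, and that of Cy5 was 27.0 to 54.9% in control and 40.5 to 64.0% in cold. One array stood apart in the B cell genes, that of control replicate 6, and it also had the lowest Cy5 share of all 10, 27.0%, while its Cy3 share was 59.1%.

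B cell genes were, on the whole, more abundant in PBMC than in the pool. The control mean of the log2 ratio was above 0 for 29 of the 30 genes, against 54.4% of all features, and their median was 0.57 in control and 0.58 in cold. Control means ran from -0.55 for EBF1 to 1.37 for LYN. EBF1, a B lineage factor that is also active in fat and stromal cells, was the gene below the pool in control. The count of genes above the pool was 29 as well with each array centred on its median in place of loess, where 75.9% of all features were above it, so that the excess over all features depended on the normalisation.

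The level of the B cell genes differed widely between the control ferrets themselves. In Cy3 signal, control replicate 6 was the lowest of the 10 arrays for 23 of the 30 genes, against 18.5% of all features. CD79B stood at 8.95 on that array and between 11.14 and 12.63 on the other 5 control arrays, an 8.83-fold lower signal than their mean. TNFRSF13C, the receptor for the survival factor BAFF, was at 8.33 there and between 10.08 and 11.59 on the other controls, and CD40, which receives T cell help, at 8.39 against 10.03 to 11.46. On this array the level of these receptors was thus far below every other control.

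The deficit of control replicate 6 in Cy3 signal extended across the B cell programme. Set against the mean of the other controls, 17 of the 30 genes were lower by more than 1 log2 unit, 11 of them among the 14 B-restricted genes, while 0.985% of all features were that far below. Of the 30 genes, 9 were lower by more than 2 log2 units, against 0.182% of all features. On each of the other 9 arrays, compared in the same way with its own group, no more than 1 of the 30 genes was lower by 1 log2 unit in Cy3 signal. The median shift of the 14 B-restricted genes was -2.11 on control replicate 6 and 0.99 on control replicate 4, the array with the highest values. On the log2 ratio the deficit was smaller, with 6 of the 30 genes on control replicate 6 lower by more than 1 log2 unit (5 of them B-restricted, against 0.201% of all features), 0 by more than 2, and a median shift of -0.78 for the B-restricted genes. On that scale cold replicate 4 had 2 genes lower by more than 1 log2 unit, 1 of them by more than 2, and no array other than these had more than 1.

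On control replicate 6, 25 of the 30 genes lay below every other control in Cy3 signal, and 5 (VPREB3, JCHAIN, PRDM1, BCL6 and CD37) did not. VPREB3, a protein of immature B cells that binds newly made receptor chains, was at 12.53 on this array and between 11.31 and 12.65 on the other controls. JCHAIN, the chain that joins secreted IgM and IgA, was at 14.42 and lay within the control range of 12.74 to 14.99. PRDM1, the factor that starts plasma cell differentiation, was at 8.85, within 8.68 to 9.29. In bulk PBMC, fewer cells of a type and less RNA per cell cannot be told apart. The levels named in these paragraphs, other than those of CD79A, CD79B, CD22, LYN, CD180, CD72, EBF1, BCL6 and MZB1, were picked after their values had been seen.

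**Figure D1:**
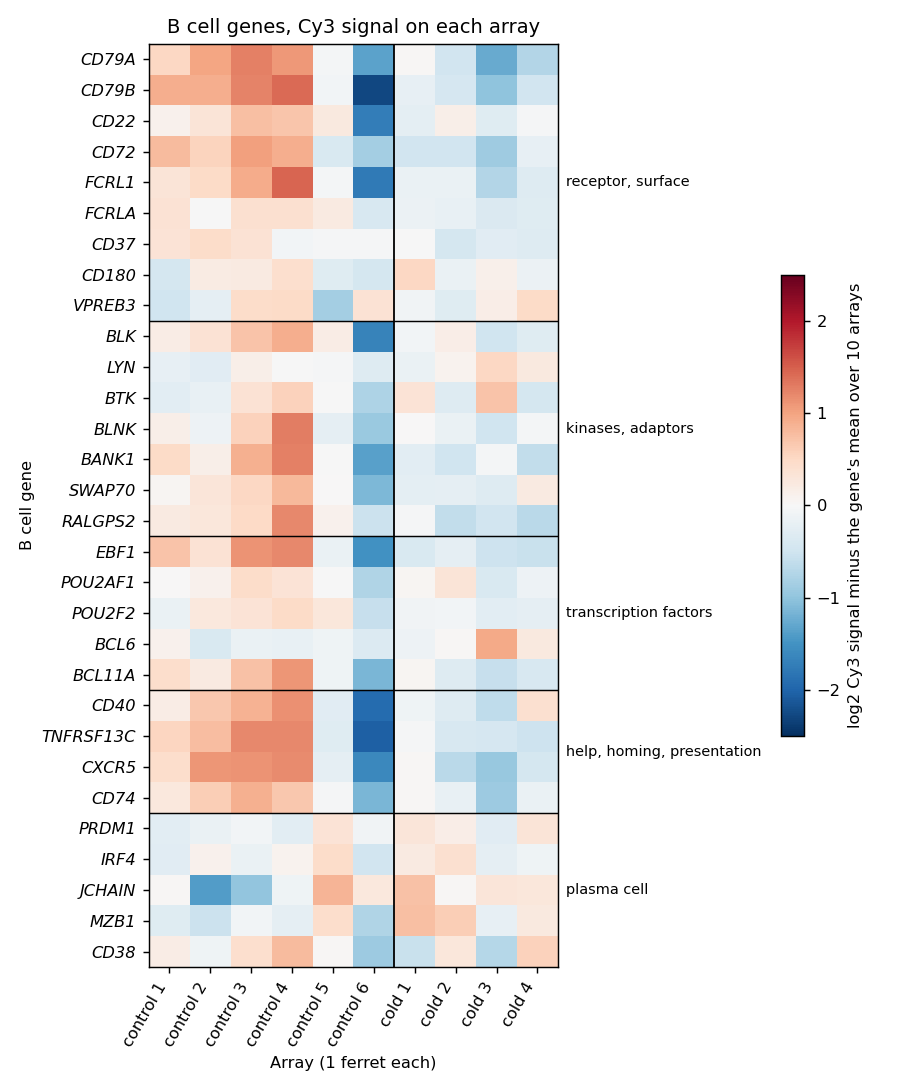
Log2 Cy3 signal of the 30 measured B cell genes (rows, grouped by role) on each of the 10 arrays (columns), minus the mean of the gene over the arrays; red is above and blue below that mean. Control replicate 6 was the lowest array for 23 of the 30 genes, JCHAIN and PRDM1 among the plasma cell genes at the bottom not being among them.

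Cold and control were then compared over all 10 arrays. On the log2 ratio, 2 of the 30 B cell genes passed the study's unadjusted threshold of 0.01 (limma), MZB1 upwards and EBF1 downwards, which is 6.67% of the genes where 8.64% of all features passed, 5.21% upwards and 3.43% downwards. At an unadjusted p of 0.05 the count was 6, or 20.0% against 24.7% of all features (12.2% higher and 12.5% lower), of which LYN, CD180, BCL6 and MZB1 were higher in cold and EBF1 and CD72 lower. No B cell gene passed at an adjusted p of 0.05, nor did any of the 26303 features (limma, and likewise with the methods' t-test). In none of the 30 genes were the cold and control arrays fully apart, against 5.22% of all features. The median log2 change was -0.03, with 13 genes higher and 17 lower, and the median of all features was -0.01. As a group the B cell genes were therefore called no more often than other genes.

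Of the 9 measured genes of the receptor and its surface regulators, 7 lay below control in cold on the log2 ratio (all but CD180 and VPREB3), against 52.0% of all features, with a median log2 change of -0.10. None of the 9 passed an unadjusted p of 0.01. The log2 ratio of CD79A was 1.19, 0.41, -0.05 and 0.42 in the 4 cold ferrets, and in control it ran from 0.11 over a median of 0.84 to 1.36. The groups overlapped, with cold replicate 1 above most controls. The change was -0.31 ± 0.25 (SE), with a 95% interval of -0.87 to 0.25 (limma, unadjusted p = 0.245, adjusted p = 0.472), and it was 0.02 among the arrays in position 1 of their slides, which include control replicate 6, and -0.66 among the 2 control and 2 cold arrays in position 2. With position as a block over all 10 arrays the log2 change of CD79A was -0.27 (unadjusted p = 0.317). In Cy3 signal it was -1.02 (adjusted p = 0.195).

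CD79B, the partner of CD79A in the receptor, had log2 ratios of 0.78, 0.32, 0.22 and 0.59 in cold, and from -0.24 over a median of 0.97 to 1.47 in control. All 4 cold ferrets lay below 5 of the 6 controls and above control replicate 6. The change was -0.43 ± 0.29, with an interval of -1.06 to 0.21 (adjusted p = 0.376). Without control replicate 6 it was -0.66, at an unadjusted p of 0.00293, the 1 fit of 10 past the study's threshold when each array was left out in turn. Over these fits it ran from -0.66 to -0.32, with p up to 0.320, and it was -0.23 among the arrays in position 1 of the slide (unadjusted p = 0.609) and -0.75 among those in position 2 (unadjusted p = 0.0382).

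CD22, a sialic acid-binding receptor that restrains the B cell receptor, had log2 ratios of 0.93, 1.54, 0.98 and 1.27 in cold. The controls ran from -0.13 over a median of 1.31 to 1.77, and control replicate 6 was the only control below 1.25. The control mean was 1.19 ± 0.68 (SD, n = 6), and the cold mean was 1.18 ± 0.28 (SD, n = 4). The change was -0.01 ± 0.32, with an interval of -0.71 to 0.68, so that the means were close while the interval was wide in both directions. Its 12 probes from 3 target sequences ranged from -0.20 to 0.24, with 6 of them lower.

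CD72, another inhibitory coreceptor, stood at -0.12, 0.07, -0.47 and 0.01 in cold and ran from -0.19 over a median of 0.31 to 0.67 in control. Its cold values overlapped those of control replicates 5 and 6. The change was -0.38 ± 0.17 (unadjusted p = 0.0494, adjusted p = 0.201; exact permutation p = 0.0905). All 8 CD72 probes were lower, by -0.20 to -0.52.

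CD180, a relative of the Toll-like receptors that B cells and monocytes carry, went the other way. Its log2 ratio was 1.81, 0.82, 1.52 and 1.07 in cold and ran from 0.47 over a median of 0.73 to 1.25 in control. Cold replicates 2 and 4 lay among the higher controls, and the other 2 above all of them. The change was 0.56 ± 0.20 (unadjusted p = 0.0196, adjusted p = 0.139; exact permutation p = 0.0429), but it was 0.14 in Cy3 signal and -0.10 with median-centred arrays. That centring moved the median of all features to -0.43, so the centred CD180 value still lay above it.

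**Figure D2:**
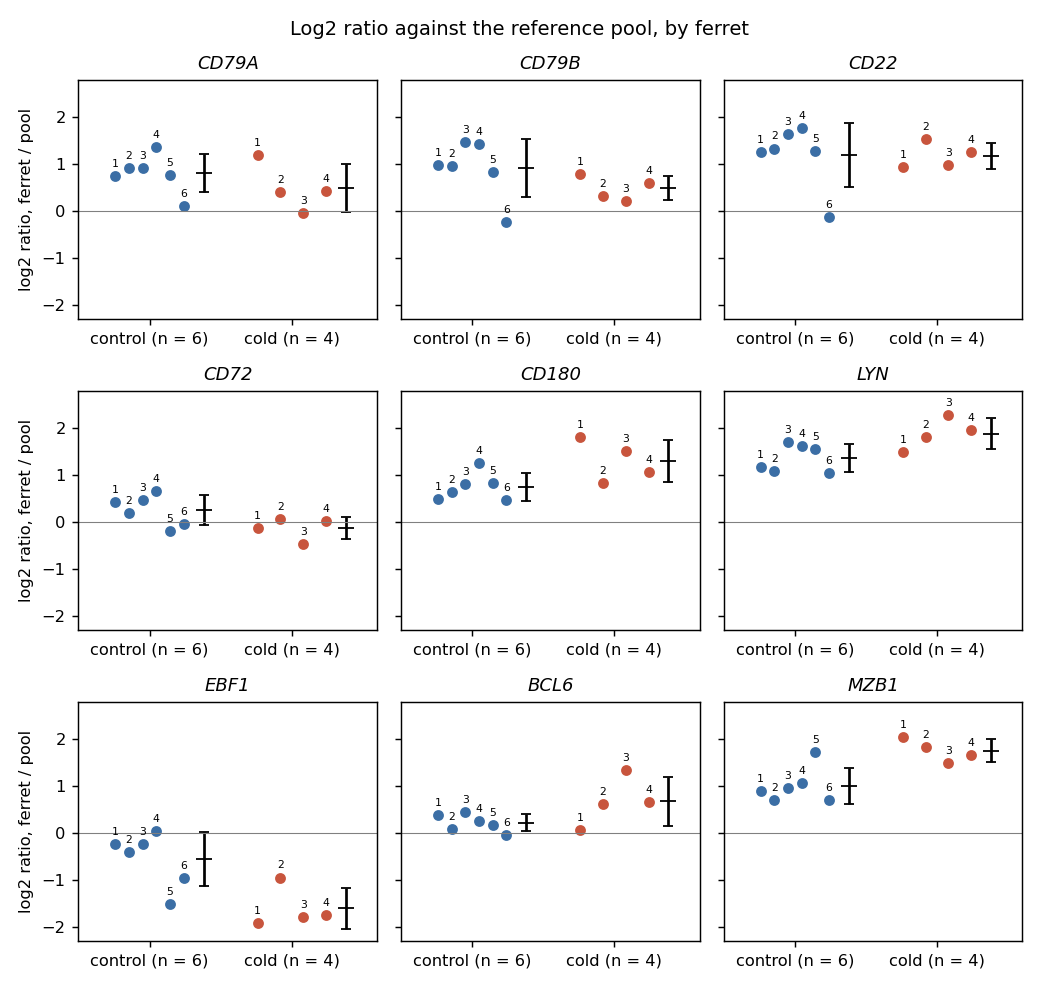
Log2 ratio of each ferret to the reference pool for 9 B cell genes, with 1 point per ferret labelled by its replicate number (blue, 6 control; red, 4 cold) and the mean with its SD in black. Control replicate 6 lay below the other controls for CD79A, CD79B and CD22, and by less for CD180, LYN and BCL6. Control replicate 5 lay with the cold ferrets for MZB1 and EBF1, and the groups overlapped in every panel.

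Among the kinases and adaptors behind the receptor, 3 of 7 measured genes were higher in cold and 4 lower, with a median log2 change of -0.02. LYN, the SRC family kinase that both starts and restrains the signal and that myeloid cells also use, had log2 ratios of 1.50, 1.82, 2.29 and 1.96 in cold. In control it ran from 1.05 over a median of 1.37 to 1.70, so that 3 of the 4 cold ferrets lay above every control. The change was 0.52 ± 0.18 (unadjusted p = 0.0140, adjusted p = 0.126; exact permutation p = 0.0429), it was 0.29 in Cy3 signal, and with median-centred arrays it turned to -0.44, close to the all-feature median of -0.43. BLK, the SRC family kinase that is largely confined to B cells, had a difference of 0.07 ± 0.19 on the ratio and of -0.29 in Cy3 signal, neither past the test. BTK, mutated in X-linked agammaglobulinaemia, was spread widely within the cold group, from 0.47 to 2.14, and its change of 0.53 ± 0.35 did not pass the test. The scaffolds BLNK, BANK1 and SWAP70 and the exchange factor RALGPS2 lay between -0.29 and -0.02.

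EBF1, among the transcription factors, had the largest difference of the 30 B cell genes on the log2 ratio, though not in Cy3 signal, where CD79A, CD79B, CD72, CXCR5 and RALGPS2 differed more. Its log2 ratio was -1.91, -0.95, -1.80 and -1.75 in cold, and it ran from -1.51 over a median of -0.32 to 0.05 in control. Cold replicates 1, 3 and 4 lay below every control, while control replicates 5 and 6 lay near or below cold replicate 2. EBF1 was lower by 1.06 ± 0.30 on the log2 scale, that is 0.481 times the control level (unadjusted p = 0.00444, adjusted p = 0.0930; exact permutation p = 0.0190). All 16 probes of its 4 target sequences were lower, by -0.83 to -1.25. The difference was -1.05 among the arrays in position 1 and -0.90 among those in position 2, and leaving out each array in turn kept it between -1.27 and -0.94, with the unadjusted p above 0.01 in 5 of the 10 fits (control replicates 1 and 3, cold replicates 1, 3 and 4). In Cy3 signal it was -0.71 ± 0.44 (unadjusted p = 0.136), where control replicate 6 was the lowest array at 7.58, and -1.07 without that array, and the Cy5 signal of EBF1 differed by 0.12 (unadjusted p = 0.104). EBF1 did not pass the unadjusted threshold of 0.01 with the processed signals, the deposited table, median centring or the methods' t-test either, and was lower in each of them.

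The other 4 factors had differences of -0.11 to 0.45 on the log2 ratio, and in Cy3 signal 4 of all 5 factors were lower. BCL6, the repressor of the germinal centre reaction that T cells and myeloid cells also express, was at 0.08, 0.62, 1.36 and 0.67 in cold and from -0.04 over a median of 0.22 to 0.46 in control. Cold replicate 1 lay among the controls and the other 3 above them. The change was 0.45 ± 0.20 (unadjusted p = 0.0464, adjusted p = 0.196; exact permutation p = 0.0667), ranging from 0.23 without cold replicate 3 to 0.66 without cold replicate 1, and -0.46 with median-centred arrays. POU2AF1 and POU2F2, the octamer coactivator and factor that drive immunoglobulin genes, and BCL11A had differences of 0.21, 0.20 and -0.11 on the ratio, none of them past an unadjusted p of 0.05, and of -0.06, -0.26 and -0.52 in Cy3 signal. No Cy5 spot of POU2AF1 was well above background on any array, so that its ratio was taken against a pool signal at background.

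The receptors for help, survival and homing were all lower in cold without passing the test. CD40, TNFRSF13C, the follicle-homing receptor CXCR5 and the class II invariant chain CD74 had changes of -0.18, -0.52, -0.27 and -0.34 on the log2 ratio, and of -0.28, -0.57, -0.84 and -0.52 in Cy3 signal. The spread within groups was wide. The TNFRSF13C ratio, for instance, was 0.78, 0.12, 0.50 and -1.68 in the cold ferrets, and its change was 0.02 without cold replicate 4. In Cy3 signal the same ferrets lay close together for this gene, at 10.35, 9.99, 9.96 and 9.87.

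The plasma cell genes formed the only role group in which every measured gene was higher in cold on the log2 ratio, 5 of 5, with a median log2 change of 0.32 (0.21 in Cy3 signal, where CD38 was lower, and -0.11 with median-centred arrays, against -0.43 for all features). All 5 are counted here among the 16 genes also used by other blood cells, not among the B-restricted ones. MZB1, a chaperone of the endoplasmic reticulum that assists antibody assembly in plasma cells and marginal zone B cells, had log2 ratios of 2.05, 1.84, 1.49 and 1.67 in cold. In control it ran from 0.70 over a median of 0.93 to 1.74. The cold ferrets lay above 5 of the 6 controls and overlapped control replicate 5. MZB1 was higher by 0.75 ± 0.19 on the log2 scale, a 1.68-fold difference (unadjusted p = 0.00255, adjusted p = 0.0822; exact permutation p = 0.0286), and by 0.59 ± 0.23 in Cy3 signal. With median-centred arrays it was -0.11, against -0.43 for all features, and in the deposited table it was 0.31 (unadjusted p = 0.186). Its 4 probes changed by 0.63 to 0.91.

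The MZB1 difference depended on which ferrets were set side by side. Among the arrays in position 1 of the slide it was 1.10, and among those in position 2, where control replicate 5 was 1 of 2 controls, it was 0.23. Leaving out control replicate 5 raised it to 0.89 and gave an adjusted p under 0.05, as it did for EBF1 and for 2.41% of all features. Leaving out cold replicate 1 lowered it to 0.65, at an unadjusted p of 0.0109. JCHAIN had ratios of 1.91, 1.43, 1.75 and 1.71 in cold and from 0.14 over a median of 1.27 to 2.00 in control, again with control replicate 5 highest. Its change was 0.57 ± 0.30 (unadjusted p = 0.0876). PRDM1, IRF4 and CD38 had differences of 0.32, 0.20 and 0.07 on the ratio, none of them past an unadjusted p of 0.05. The pool was dim for PRDM1 and IRF4, with 20.3 and 6.25% of their Cy5 spots well above background on the control arrays and 60.2 and 34.4% on the cold arrays.

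**Figure D3:**
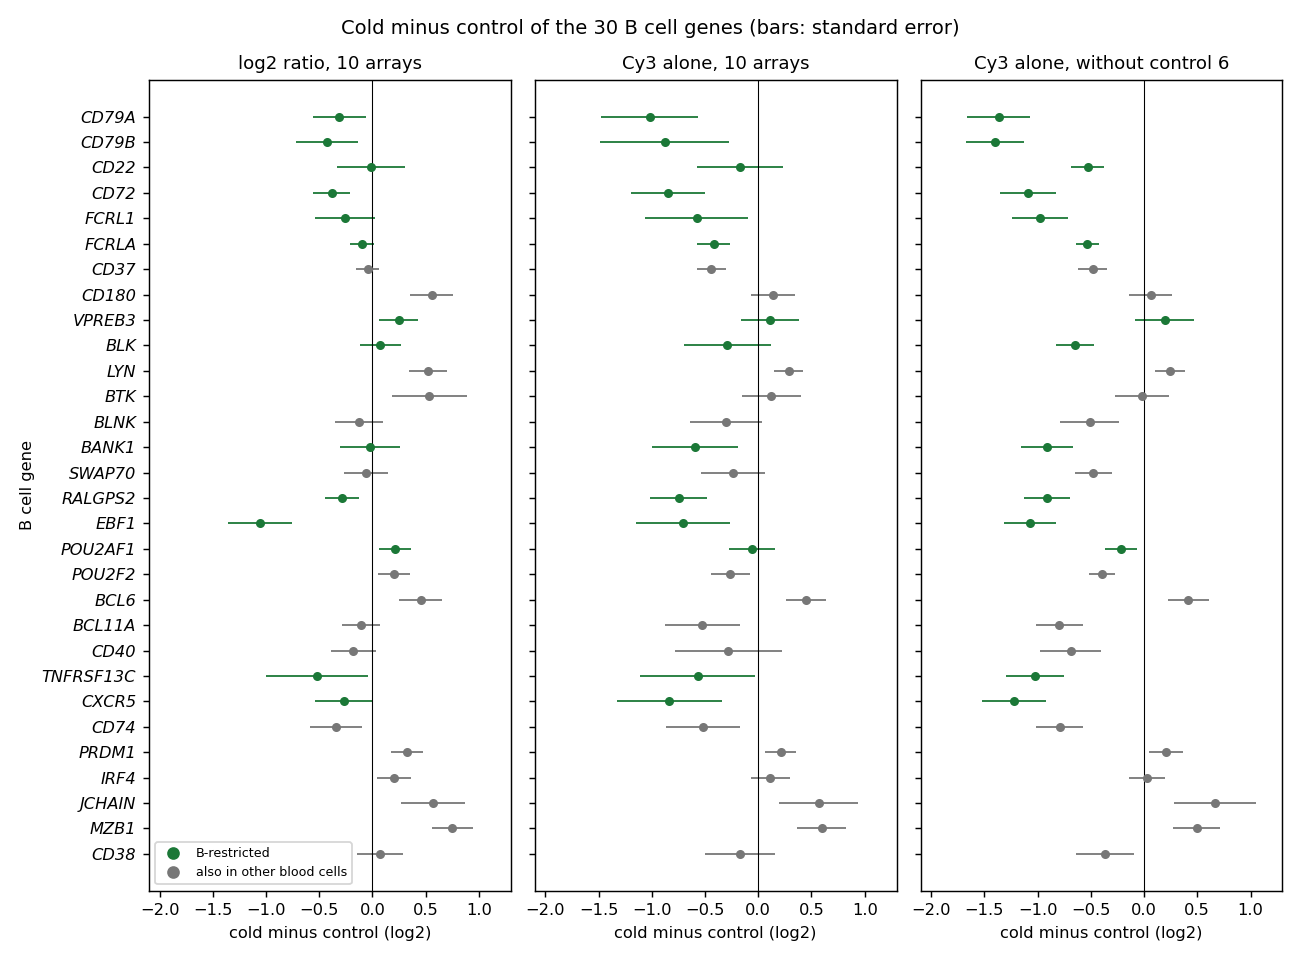
Cold minus control (log2, x axis) with its standard error for each of the 30 B cell genes (y axis, in role order), on the log2 ratio, on Cy3 signal over all 10 arrays, and on Cy3 signal without control replicate 6. Green points are the 14 B-restricted genes, of which 11 lay below 0 on the ratio and 13 in Cy3 signal, and grey points are genes also used by other blood cells.

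The B-restricted genes and the shared genes had medians of opposite sign on the ratio, a difference for which no test was made. The 14 B-restricted genes had a median log2 change of -0.26 on the ratio, with 11 lower and 3 higher (VPREB3, BLK and POU2AF1), and of -0.59 in Cy3 signal, with 13 lower. On the ratio the same median was -0.57 with the scanner software's processed signals, -0.54 in the deposited table, -0.43 with the replicate number as a block and -0.03 among the arrays in position 1 of the slide. The block fit compares replicates 1 to 4 of each group alone, since control replicates 5 and 6 have no cold replicate of their number. The 16 shared genes had a median of 0.20 on the ratio, with 10 higher, and of -0.03 in Cy3 signal, with 8 higher. The median of all features was -0.01 on the ratio and -0.04 in Cy3 signal. Few single genes passed the test in Cy3 signal over all 10 arrays, where CD37, a tetraspanin of mature B cells, was the 1 gene of 30 past an unadjusted p of 0.01 (-0.44, unadjusted p = 0.00688), against 9.84% of all features and 4.36% in that direction. At an unadjusted p of 0.05 there were 7 of 30 in Cy3 signal, against 24.8% of all features, with CD79A, CD72, RALGPS2, FCRLA and CD37 lower and MZB1 and BCL6 higher. None passed at an adjusted p of 0.05, against 2.82% of all features.

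The array of control replicate 6 weighed on this comparison. Its B-restricted score, the median over the 14 genes after each was centred on the midpoint of its 2 group means, was -1.38 in Cy3 signal, while the other controls lay between 0.01 and 1.22 and the cold ferrets between -0.42 and -0.10. The cold ferrets thus lay between control replicate 6 and the other 5 controls. The SD of the score was 0.92 in control and 0.14 in cold. On the ratio, where the scores were -0.59 on control replicate 6, from -0.01 to 0.73 on the other controls and from -0.14 to 0.12 in cold, cold replicate 1 overlapped the other controls.

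With control replicate 6 left out, which was decided after its values had been seen, the Cy3 comparison changed. Then 16 of the 30 genes passed an unadjusted p of 0.01, all lower in cold and 12 of them B-restricted, against 12.7% of all features and 5.74% in that direction. At an adjusted p of 0.05 there were 7, all lower and all B-restricted, against 6.40% of all features and 2.37% in that direction. They were CD79A (-1.37), CD79B (-1.40), CD72 (-1.09), FCRLA (-0.53, from 1 probe near background), RALGPS2 (-0.91), EBF1 (-1.07) and CXCR5 (-1.22), with adjusted p from 0.0303 to 0.0427. Leaving out any other single array gave 0 such genes in Cy3 signal, where 0 to 3.62% of all features passed. On the log2 ratio, leaving out control replicate 6 gave 3 genes past the unadjusted p of 0.01, where 6.90% of all features passed, and 0 past the adjusted one, where 0% passed. As a set, these 7 calls at the adjusted threshold therefore rested on leaving out 1 control ferret and on the Cy3 scale. On the ratio, EBF1 and MZB1 passed it without control replicate 5, and EBF1 without cold replicate 2 (2.41% and 4.84% of all features). The median of the B-restricted genes was below 0 over all 10 arrays as well. With 5 controls, the median change of the B-restricted genes was -0.95 in Cy3 signal and -0.39 on the ratio.

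The other genes of the receptor pathway were called about as often as all features. Of 56 listed genes outside the 48, 33 were measured, with a median log2 change of 0.04, 19 higher and 14 lower. Past an unadjusted p of 0.01 were 3, or 9.09% against 8.64% of all features. ITPR2, a receptor that releases calcium from the endoplasmic reticulum after antigen binding, was lower by -0.42 ± 0.08 (unadjusted p = 3.13e-04, adjusted p = 0.0638), and MAP3K7, the kinase TAK1 of the NF-kB route, by -0.34 ± 0.08 (unadjusted p = 0.00124, adjusted p = 0.0736). In both genes the cold and control arrays were fully apart on the ratio, as in 5.22% of all features, and the Cy3 changes were -0.40 and -0.17. HCLS1, a cytoskeletal substrate of LYN, was higher by 0.34 ± 0.09 (unadjusted p = 0.00398), with a Cy3 change of 0.06. Of 13 genes of class II antigen presentation 5 were measured, with a median of 0.02. The protease CTSS, which trims the invariant chain and is abundant in monocytes, was higher by 0.49 ± 0.16 (unadjusted p = 0.00969).

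Marker lists of other blood cells were measured on the same arrays, and their part in the B cell results was not tested. On the log2 ratio, 11 of 12 measured T cell genes were lower in cold (of 18 listed, median -0.47), 8 of 9 monocyte genes were higher (of 13, median 0.58), and all 8 neutrophil genes (of 17, median 0.82) and all 8 platelet genes (of 12, median 0.88) were higher. All 4 measured erythroid genes (of 10) were lower, with a median of -0.74, where 52.0% of all features were lower. On that scale, past an unadjusted p of 0.01, against 8.64% of all features, were 1 T cell gene and 1 erythroid gene, both lower. Likewise past it were 3 monocyte, 4 neutrophil and 4 platelet genes, all higher, and none passed at an adjusted p of 0.05. In Cy3 signal all 12 T cell genes were lower, with a median of -0.67. Past an unadjusted p of 0.01 there were 8 T cell and 2 erythroid genes, lower, and 3 monocyte, 4 neutrophil and 1 platelet, higher, against 9.84% of all features. At an adjusted p of 0.05, 1 erythroid, 2 neutrophil and 1 platelet gene passed in Cy3 signal, against 2.82% of all features. The mean log2 Cy3 level of the neutrophil list was 12.94 to 13.59 in control and 14.10 to 14.21 in cold, and that of the T cell list was 11.76 to 12.27 and 10.79 to 11.78. That of the monocyte list was 11.31 to 11.92 and 11.62 to 12.74, that of the platelet list 9.91 to 12.29 and 11.46 to 12.44, and that of the erythroid list 9.65 to 11.92 and 8.03 to 9.43. Of 12 cytotoxic and natural killer cell genes 7 were measured, with a median of 0.10, and of 7 plasmacytoid dendritic cell genes 2, with a median of 0.01, and in neither list did a gene pass an unadjusted p of 0.01. LYN, CD180, BCL6 and CTSS, all higher in cold on the ratio, are also expressed by monocytes. Of the 16 measured B cell genes also used by other blood cells, 10 were higher and 6 lower there. CD74 (-0.34), CD40 (-0.18), BLNK (-0.12) and CD37 (-0.04) were among the lower ones.

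On control replicate 6 the platelet score in Cy3 signal was 1.06, against -1.98 to -0.39 on the other controls, and the erythroid score was 2.37, against 0.05 to 2.19. The T cell score was 0.36 there and 0.04 to 0.57 on the other controls, and the monocyte score -0.25, against -0.69 to 0.04. The B-restricted genes were thus low on an array on which the T cell and monocyte scores lay within the range of the other controls.

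**Figure D4:**
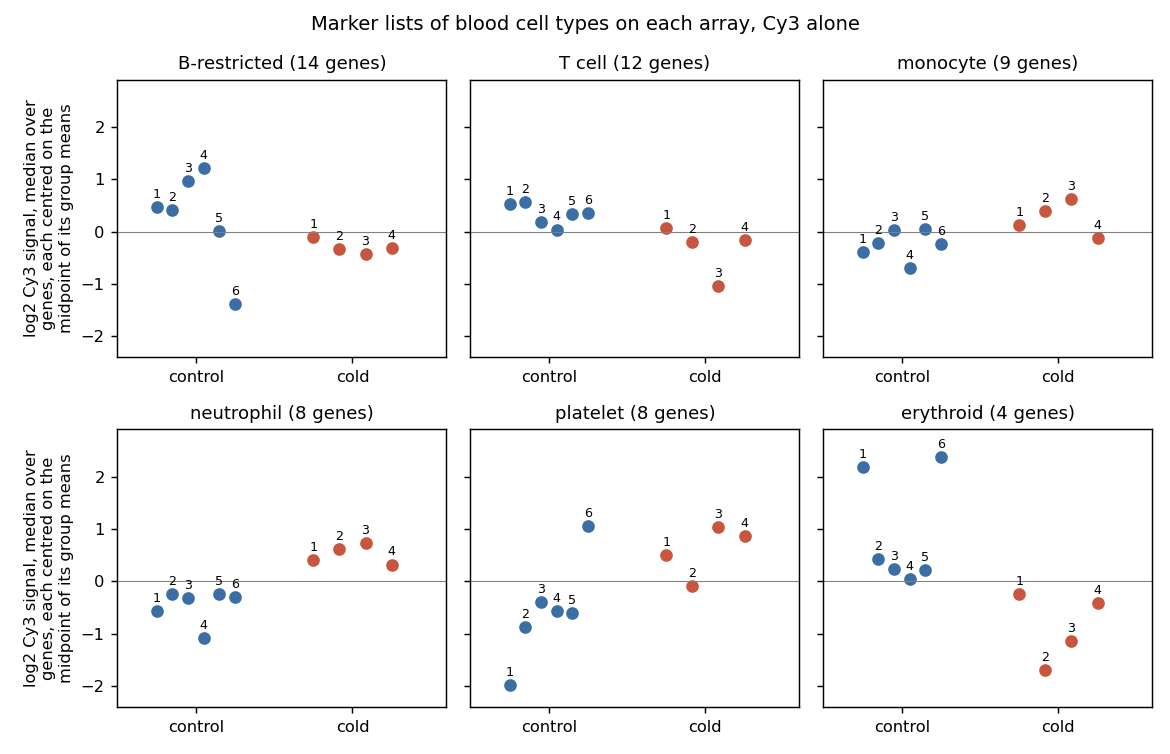
Score of 6 marker lists on each array, that is the median over the genes of the list of the log2 Cy3 signal after centring each gene on the midpoint of its 2 group means; points are ferrets (blue, control; red, cold) labelled by replicate number. Control replicate 6 was lowest in the B-restricted list at -1.38 and above the other controls in the platelet list at 1.06, while its T cell score of 0.36 lay within the control range.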

How the data were processed

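PBMC RNA of 10 ferrets was measured on 10 two-colour Agilent arrays. The authors deposited spot intensities (median and local background in Cy3 and Cy5), intensities processed by Agilent Feature Extraction 10.7.3.1, flags, given as other values, and log2 values for each target sequence. Mean spot intensities were planned for, and medians were used because the files hold these. The values were corrected by normexp (offset 50) in limma 3.58.1 (R 4.3.3), normalised by loess (span 0.3, 4 iterations) without control spots, cleared of outlier spots, and averaged to probes and then genes. The filter asked for a share of 0.5 of the spots of a probe to be well above background in Cy3 on 4 arrays. Of 45328 target sequences, 21104 were named through RefSeq (ASM1176430v1.1) as 12918 genes, and 2 features with missing values were left out. Coordinates were not used here.

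The 6 control and 4 cold arrays were compared by limma (lmFit, eBayes) over 26303 features with Benjamini-Hochberg adjustment, and single genes by a two-sided exact permutation test over 210 splits, whose smallest p is 0.00476. The fit was tested on simulated data. Arrays lay on 10 slides, scanned on 1 day.

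The B cell genes and all gene lists were chosen with earlier results of these data known. Statistics are given by rule for CD79A, CD79B, MS4A1, CD22 and PAX5, for members with an unadjusted p under 0.05 or groups fully apart, and, in the receptor pathway and class II lists, for members with an unadjusted p under 0.01. Marker lists of other blood cells are given as counts, medians, levels and scores, without statistics of single genes. Alternatives were the processed intensities, no background subtraction, median centring, Cy3 alone, the deposited log2 table, other filters and probe summaries, target sequences, the methods' t-test, array weights, blocks for slide position and for replicate number, and fits without each array. Each slide position alone and Cy3 alone without each array were added after seeing the data. Protein and promoter sequence features were not analysed here. A gene of the listed markers is not reported here.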

Additional observations from a re-analysis of the deposited data

Results flagged for a closer look

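A sample far from the others of its group was sought in each of the 30 B cell genes, in each group and on both scales, and in the scores of all members and of the B-restricted genes. Of 120 such gene groups 9 were flagged, and chance flags about 1 in 20.

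Control replicate 6 was the low sample in 4 of them. On the log2 ratio CD79B was -0.24 there (0.84 to 1.47 on the other controls) and CD22 was -0.13 (1.25 to 1.77). In Cy3 signal CD22 was 11.27 (13.11 to 13.75) and BLK 7.93 (9.77 to 10.51).

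Control replicate 5 was the high sample for plasma cell genes, with a log2 ratio of 0.86 for PRDM1 (0.18 to 0.34 on the other controls) and of 1.74 for MZB1 (0.70 to 1.06), and a Cy3 signal of 9.29 for PRDM1 (8.68 to 8.88).

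In the cold group, EBF1 was highest in replicate 2 with a log2 ratio of -0.95 (-1.91 to -1.75), SWAP70 was highest in replicate 4 with a Cy3 signal of 11.70 (11.15 to 11.24), and the B-restricted score on the ratio was highest in replicate 1 at 0.12 (-0.14 to -0.13).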

How the results depend on the processing

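The limits of depth were those of the signal: 223 of 240 matched probes were well above background, and Cy5 was dim on control arrays. Of the 30 single-gene changes, those near 0 turned their sign most often. With the scanner software's processed signals, FCRLA was 0.13, BLK -0.29 and CD38 -0.15, with 1 gene at an unadjusted p under 0.01 (5.72% of all features). With median centring, CD180 was -0.10, VPREB3 -0.66, BLK -0.40, LYN -0.44, BTK -0.23, POU2F2 -0.42, BCL6 -0.46, JCHAIN -0.41, MZB1 -0.11 and CD38 -0.49, with 1 gene under 0.01 (4.42%), a median change of -0.60 for all members and of -0.95 for the B-restricted ones, and a median level of 2.34 in control and 1.62 in cold. In Cy3 alone, BLK was -0.29, POU2AF1 -0.059, POU2F2 -0.26 and CD38 -0.17, with 1 gene under 0.01 (9.84%). In the deposited table, FCRLA was 0.41, VPREB3 -0.21, BLK -0.022, BLNK 0.24, POU2F2 -0.0012 and CD38 -0.12, with 0 genes under 0.01 (4.16%) and 3 under 0.05 (19.8%). The methods' t-test left 1 gene under 0.01 (6.56%). The median over probes put CD22 at 0.016, and array weights put BANK1 at 0.0088. In position 1 of the slide alone, CD79A was 0.018, CD22 0.18, CD37 0.017, TNFRSF13C 0.12 and CD38 -0.018, with 1 gene under 0.01 (3.88%); in position 2, BLK was -0.19, POU2AF1 -0.046 and IRF4 -0.15, with 0 genes (1.54%). These 2 settings, and Cy3 alone without each array, were chosen after seeing the data. The cause of these differences was not tested.

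Leaving out each array in turn, on the ratio and in Cy3 alone, the count under 0.01 ran from 0 to 16 (4.85 to 12.9% of all features), that under 0.05 from 2 to 19 (17.1 to 30.1%) and that at an adjusted p under 0.05 from 0 to 7 (0 to 6.40%), the highest member values all in Cy3 without control replicate 6. On the ratio, the adjusted count was 2 without control replicate 5 (MZB1 and EBF1, with 2.41% of all features), 1 without cold replicate 2 (EBF1, with 4.84%) and 0 otherwise. The median change ran from -0.52 to 0.078 over all members and from -0.95 to -0.11 over the B-restricted ones. On the ratio, CD22 ran from -0.28 to 0.10, BANK1 from -0.20 to 0.16, BLNK from -0.23 to 0.046, SWAP70 from -0.22 to 0.053, BCL11A from -0.19 to 0.012, BLK from -0.048 to 0.18, CD38 from -0.10 to 0.20, CD37 from -0.15 to 0.032 and TNFRSF13C from -0.81 to 0.017. EBF1 and MZB1 kept their direction in each of these fits.

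Replicates 1 to 4 of both groups share only a number. Their deviations from the group means correlated at -0.30, 0.54, 0.10 and -0.19, so that the numbers did not pair the ferrets. Control replicates 5 and 6 have no cold replicate of their number. A fit with the replicate number as a block therefore compared replicates 1 to 4 of each group alone. In that fit 6 genes in place of 2 had an unadjusted p under 0.01 (9.35% of all features in place of 8.64%), BLK was -0.016 and CD38 -0.0064.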
